A study of Mus musculus with 8 samples.

Results

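The nuclei described here were the 25% of nuclei with the most neuronal accessibility profile in each of 2 samples of the caudal ganglionic eminence (CGE) of the mouse embryo, 2033 of the 8135 CGE nuclei with 5000 or more counts and of 39253 nuclei in the whole series. They were chosen by their counts over 11 genes. In each nucleus the counts in peaks over the body or the 2 kb upstream of 6 progenitor genes (Hes1, Hes5, Sox2, Notch1, Nes and Vim) were set against the counts over 5 genes of GABAergic neurons (Dlx5, Dlx6, Gad1, Gad2 and Slc32a1). Nuclei were ranked by the progenitor count plus 1, divided by both counts plus 2, and the lowest 25% of each sample were kept, 926 nuclei of CGE replicate 1 and 1107 of CGE replicate 2. The same cut gave 1521 and 828 nuclei in the medial ganglionic eminence (MGE) and 1468 and 1154 in the lateral ganglionic eminence (LGE), and all nuclei kept by it are called members below.

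The series profiled open chromatin by single-nucleus ATAC-seq, in which a transposase cuts accessible DNA and inserts sequencing adapters, in 4 regions of the wild-type mouse forebrain with 2 samples per region. The 6 eminence samples used here were all labelled E12.5 and carried no treatment or transgene. The labels give the tissue only as a dissected region and do not say whether the 2 samples of a region came from separate litters, so the p-values measure the spread between samples, which may be technical. The members held 16410426 and 16841072 counts in CGE, 25430664 and 12589595 in MGE and 24966338 and 15835597 in LGE. Any pair of libraries shared between 15 and 56 barcodes, at most 1.17% of the smaller library, and no doublet caller was used.

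The ganglionic eminences are swellings of the ventral telencephalon in which dividing progenitors line the ventricle and give rise to GABAergic neurons, the inhibitory neurons of the forebrain. Gad1 and Gad2 encode the enzymes that make GABA, Slc32a1 encodes the transporter that loads it into vesicles, and the Dlx homeobox factors specify the lineage. The CGE is known as a source of cortical interneurons that often carry Nr2f2, Prox1, Reln, Vip or the serotonin receptor gene Htr3a. The MGE, marked by Nkx2-1, gives rise to Lhx6-positive interneurons that later make somatostatin or parvalbumin, and the LGE is the main source of striatal projection neurons. Accessibility over a gene is not its expression, and here it is given in CPM, the counts in a sample's own peaks over a gene scaled to a common total of counts assigned to genes. In the comparisons of members alone between eminences, the total is that of the tested genes after TMM, a scaling between libraries. The same gene can therefore have slightly different CPM in other paragraphs.

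The values that fixed the membership are given as a description. Members had a median of 6 and 4 counts over the progenitor genes and 15 and 16 over the GABAergic genes in the 2 CGE samples, against 31 and 37 and then 2 and 2 in the 25% of nuclei at the other end of the ranking, called the progenitor end. The median score was 0.306 and 0.25 in members and 0.912 and 0.917 at the progenitor end. The score at the cut was 0.455 in CGE replicate 1 and 0.409 in replicate 2, the same just inside and just outside it, because 5 and 16 nuclei were tied there. In MGE the cut fell at 0.4375 in replicate 1 and 0.3125 in replicate 2, and the median score of members was 0.318 and 0.226. In both LGE samples the cut fell at 0.5, the score of a nucleus with equal counts over both gene sets, with 296 and 159 nuclei tied. Members were shallower than the other nuclei, with a median of 13978.5 against 18361 counts in CGE replicate 1 and 13517 against 17811 in replicate 2.

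The members carried open chromatin over the GABAergic genes, as the ranking required, and over neuronal genes that the ranking did not use, but Nr2f2 ran the other way. Dlx5 and Dlx6, which share all their peaks, stood at 640 CPM in members and 71.5 at the progenitor end of CGE replicate 1 and at 627 and 76.6 in replicate 2. Slc32a1 stood at 146 against 12.4 and at 221 against 13.6. All 6 pan-neuronal genes (Dcx, Tubb3, Stmn2, Mapt, Gap43 and Elavl3) were higher in members than at the progenitor end in both CGE samples, with summed levels of 812 and 830 CPM against 464 and 509. Nr2f2, the orphan nuclear receptor gene listed as a marker of these nuclei, was at 208 CPM in members, 254 in the middle 50% of the ranking and 308 at the progenitor end of replicate 1, and at 316, 504 and 604 in replicate 2. By accessibility Nr2f2 was therefore lowest in the members in both samples, which goes against its use as a marker of their neuronal state.

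Markers of other cell types were measured in the same way. The 7 glutamatergic markers summed to 290 and 299 CPM in CGE members, 347 and 396 in the middle of the ranking and 268 and 317 at the progenitor end, and 3 of the 7 were higher in members than at the progenitor end in each sample. The summed endothelial, microglial and erythroid markers were 150 to 200, 144 to 156 and 25.4 to 25.9 CPM in CGE members and 136 to 200.3, 198 to 204 and 32.5 to 34.1 at the progenitor end. The mural or mesenchymal markers summed to 148 and 130 CPM in members and 208 and 208 at the progenitor end. Aif1, Hba-a1 and Hbb-bt, a microglial and a pair of globin markers, were listed at 0 in both samples. They were at 0 in the other CGE nuclei as well, as genes without a called peak would be, so these values do not tell the members apart.

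Clustering of all CGE nuclei on the regions with a peak in all 6 eminence samples gave 11 clusters, which were not built from the ranking. Of the 2033 members, 1646 (81.0%) lay in clusters 2, 5, 8 and 9, in which 5, 4, 5 and 5 of the 6 GABAergic markers were raised over the other CGE nuclei and which are called GABAergic neuron-like. The raised markers were genes of the ranking rule, so this share draws on values that chose the members, and Nr2f2, the marker outside the rule, was not raised in any of the 4 (log2 ratios of -0.10, -0.69, -0.64 and -0.74). The share was 80.1% in replicate 1 and 81.7% in replicate 2. A further 348 members (17.1%) lay in clusters 3, 4 and 11, in which none of the 6 GABAergic markers and 2, 6 and 5 of the 7 glutamatergic markers were raised. Clusters 4 and 11 are called glutamatergic-like, and cluster 3 keeps its number. Slc17a6, the vesicular glutamate transporter gene, stood at 325 and 338 CPM in the members of cluster 4, at 253 and 248 in cluster 11 and at 160 and 191 in cluster 3, against 27.9 to 57.7 in clusters 2, 5, 8 and 9. Raised markers were counted over all nuclei of a cluster, and members were 24.2%, 8.26% and 32.6% of the nuclei of clusters 3, 4 and 11. By Slc17a6 alone, these 348 members went against the label of the set, which rests on counts over the rule's genes. A stricter cut at the lowest 10% left 14.3% and 11.3% of the nuclei in clusters 3, 4 and 11. The 2 samples differed in which of these clusters they held, with 6.80% of members in cluster 11 and 6.59% in cluster 3 in replicate 1, and 0.723% and 13.6% in replicate 2.

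**Figure D1:**
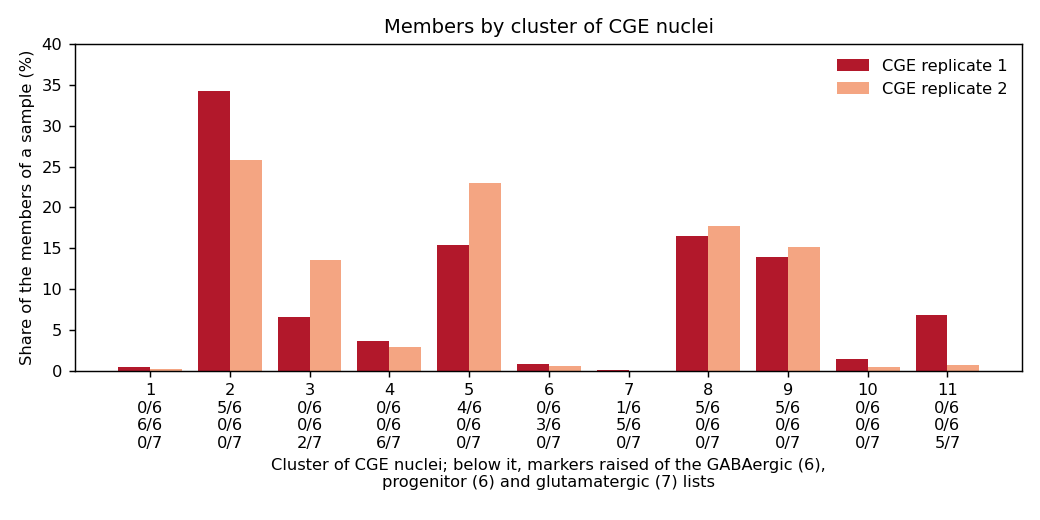
Share of the members of each CGE sample (y axis, %) in each of 11 clusters of CGE nuclei (x axis), with the number of raised GABAergic, progenitor and glutamatergic markers under each cluster. Clusters 2, 5, 8 and 9 hold 80.1% and 81.7% of the members, and cluster 11 holds 6.80% of those of replicate 1 and 0.723% of those of replicate 2.

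The GABAergic neuron-like members were of several kinds. In cluster 9 (297 members) 8 of the 15 genes of the MGE list were at their highest level of the 4 clusters in both samples, against 2 in cluster 2, none in cluster 5 and 1 in cluster 8. Of all genes tested, 13.5%, 10.4%, 6.32% and 11.6% were highest in clusters 2, 5, 8 and 9 in both samples. Lhx6, a LIM homeobox gene of MGE-derived interneurons, was at 170 and 230 CPM in its members and at 46.9 to 59.7 in those of clusters 2, 5 and 8. Nkx2-1 was at 124 and 69.3 CPM there against 29.6 to 39.6, and Sst, the somatostatin gene, at 12.8 and 22.1 against 0 to 4.4. Ackr3, a chemokine receptor gene of migrating interneurons, reached 164 and 214 CPM, but of the 15 migration genes 2 were highest in cluster 9, against 1, 4 and 3 in clusters 2, 5 and 8. Meis2, open in projection neuron lineages, was at 226 and 200 CPM against 470 to 583 in the other 3 clusters. Cluster 9 was thus the highest of the 4 for these interneuron genes and the lowest for Meis2 in both samples.

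Of the 17 genes of the striatal projection neuron list, 4 were highest in cluster 5 (397 members) and 6 in cluster 8 (349 members) in both samples, against 2 in cluster 2 and none in cluster 9. Isl1, a LIM homeobox gene of direct-pathway striatal neurons, was at 168 and 208 CPM in cluster 5 and at 147 and 187 in cluster 8, against 52.2 to 129 in clusters 2 and 9. Ebf1 was at 479 and 542 CPM in cluster 5, 345 and 455 in cluster 8 and 198 to 263 in clusters 2 and 9. Six3, a gene of the indirect-pathway lineage, was at 229 and 272 CPM in cluster 8 and 213 and 243 in cluster 2, against 120 and 98.0 in cluster 5 and 82.8 and 77.9 in cluster 9, so it did not set cluster 8 apart from cluster 2. Robo2 and Ephb1, axon guidance receptor genes, reached 589 and 637 and then 646 and 628 CPM in cluster 5. Cluster 5 also had the lowest Nr2f1 of the 4, at 232 and 283 CPM.

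Cluster 2 (603 members) held the most members, and 7 of the 15 genes of the CGE list were highest there in both samples, against 1, 1 and 2 in clusters 5, 8 and 9. Cluster 2 was also highest for 3 of the 6 progenitor markers, all genes of the rule, against 0, 0 and 1. Notch1, a receptor gene of progenitors, was at 228 and 191 CPM in its members and at 45.1 to 123 in the other 3 clusters, and the median score of its nuclei, 0.45, was the highest of the 4 (0.292 to 0.35 in the others). The part of this progenitor signal in the CGE-list count was not tested. Dlx1, an earlier Dlx gene of the lineage, was at 522 and 648 CPM in its members and Sp9, a zinc finger gene downstream of Dlx factors, at 236 and 297. Nr2f1 stood at 449 and 703 CPM, Nr2f2 at 270 and 437 and Sp8, a factor of CGE and dorsal LGE lineages, at 74.9 and 129, each the highest of the 4 clusters in both samples. These values describe the clusters and carry no test, since the clusters were formed on the same counts.

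Genes of CGE-derived interneurons had no common direction along the ranking. Adarb2, an RNA-editing family gene open in CGE interneurons, was at 248 and 265 CPM in members and at 97.8 and 94.0 at the progenitor end. Npas1, a transcription factor gene, was at 73.2 and 75.3 against 31.4 and 29.5, and Reln, which encodes a secreted guidance protein, at 188 and 180 against 91.0 and 98.5. Nr2f1 ran the other way, at 390 and 487 CPM against 478 and 823. Over the 15 genes of the CGE list, 8 and 7 were higher in members in the 2 samples, and Vip was listed at 0 in both, as a gene without a called peak would be.

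The first comparison asked how the neuronal end of CGE differs from that of MGE. Of 16855 genes tested, 53 passed (0.314%), 35 higher in CGE (0.208%) and 18 lower (0.107%), at an adjusted p no larger than 0.05 (edgeR quasi-likelihood test, Benjamini-Hochberg adjustment across the 16855). The calls included Nkx2-1, Lhx6, Lhx8 and Shh, lower in CGE, and Meis2 and Rarb, higher in CGE. In sums over nuclei, fewer nuclei of a kind and less accessible DNA per nucleus cannot be told apart. The count changed when a single library was left out. Such a fit leaves a lone sample in a region, so a lost call need not come from what that library holds. Leaving out CGE replicate 1 gave 9 genes, CGE replicate 2 gave 14, MGE replicate 1 gave 18 and MGE replicate 2 gave 387. The replicate number as a block left 16. The count fell to 0 with an offset for the length that each sample's own peaks cover over a gene, 815 genes then passing an unadjusted p of 0.05, and DESeq2 without the offset called 461. That offset moved the median log2 ratio of all genes from -0.001 to -0.116. Ratios under it are given relative to this median, here and below. The adjusted p beside such a ratio tests it before this shift is removed. Peaks were called separately in each sample, so the length they cover over a gene can itself follow its accessibility. The part of a regional difference that the offset removes for that reason was not tested, for genes or for regions.

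Of the 15 genes of the MGE list, 4 passed the test as lower in CGE, where 0.107% of all genes did, and none passed as higher. By sign alone 12 ratios were negative and 3 positive, with a median log2 ratio of -0.476 against -0.001 over all genes. With the offset the median was -0.24 relative to all genes. Nkx2-1 (chr12:56531958-56536908, GRCm38), the homeobox gene that specifies the MGE, was at 49.1 and 38.0 CPM in CGE members, 458 and 267 in MGE and 43.0 and 33.6 in LGE. The CGE and LGE samples overlapped and all 4 lay far under both MGE samples. The log2 ratio of CGE to MGE was -3.06 ± 0.29 (SE, adjusted p = 0.00866) and -1.04 with the covered-length offset (adjusted p = 0.747), and the adjusted p was 0.0695 without CGE replicate 1 and 0.0954 without CGE replicate 2. Per kilobase of peak, Nkx2-1 was at 8.02 and 5.98 CPM in CGE and 18.9 and 12.4 in MGE.

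Lhx6 (chr2:36081953-36105408), whose peaks are shared with Morn5, was at 74.2 and 78.2 CPM in CGE, 448 and 343 in MGE and 45.0 and 54.7 in LGE. CGE lay above LGE and under MGE with no overlap. The log2 ratio to MGE was -2.38 ± 0.18 (adjusted p = 0.00362), -0.89 with the offset (adjusted p = 0.745), and the adjusted p was 0.0597 without CGE replicate 1. Lhx8 (chr3:154306294-154330659), a LIM homeobox gene of cholinergic neurons, was at 41.9 and 40.0 CPM in CGE against 169 and 190 in MGE, a ratio of -2.13 ± 0.16 (adjusted p = 0.00362) that reached -1.20 with the offset (adjusted p = 0.456). Shh (chr5:28456815-28467256), a secreted ventralising signal, was at 60.8 and 62.5 CPM against 143 and 135, a ratio of -1.18 ± 0.14 (adjusted p = 0.0273). It did not pass without either CGE sample or MGE replicate 1 (0.117 to 0.181), with the offset (0.801), at start-site peaks (0.100) or with the replicate number as a block (0.0582).

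The other 11 members of the list did not pass. Gbx1, a homeobox gene of MGE-derived cholinergic neurons that shares a peak with Agap3, was at 17.1 and 18.4 CPM against 86.0 and 43.2 (-1.87 ± 0.31, adjusted p = 0.0731). Gbx2, its paralog, was at 26.4 and 47.5 CPM against 128 and 83.0 (adjusted p = 0.242). Sox6 and Maf, factors of MGE-derived interneurons, had ratios of -0.29 and -0.39. Sst had the opposite sign, at 3.43 and 4.94 CPM against 1.36 and 0.801 (1.92 ± 0.73, adjusted p = 0.385), so that the MGE members did not stand higher over every gene of their list.

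**Figure D2:**
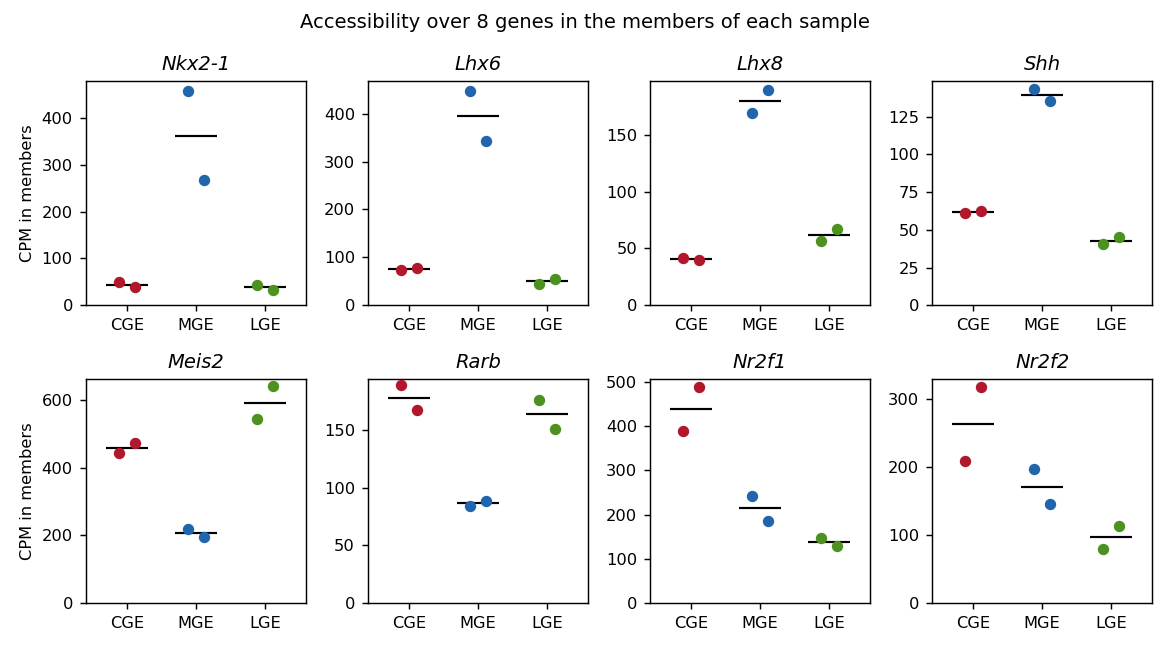
Accessibility (y axis, CPM) over 8 genes in the members of each of the 2 CGE, 2 MGE and 2 LGE samples (points), with the mean of each pair (line). Nkx2-1, Lhx6, Lhx8 and Shh are high in both MGE samples, Meis2 and Rarb are low there, and Nr2f1 and Nr2f2 are highest in both CGE samples.

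Of the 17 genes of the striatal projection neuron list, 2 passed the test as higher in CGE than in MGE, where 0.208% of all genes did, and none passed as lower. By sign alone 13 ratios were positive and 4 negative, with a median of 0.28, or 0.14 with the offset. Meis2 (chr2:115863064-116065839), a homeobox gene, was at 445 and 474 CPM in CGE, 220 and 196 in MGE and 544 and 642 in LGE. The 3 eminences did not overlap and CGE lay between MGE and LGE. The ratio to MGE was 1.14 ± 0.14 (adjusted p = 0.0293), which fell to 0.21 with the offset (adjusted p = 0.980), and the adjusted p was 0.0689 to 0.142 without either CGE sample or MGE replicate 1, 0.17 at start-site peaks and 0.0748 with the replicate number as a block. Rarb (chr14:16430839-16819156), a retinoic acid receptor gene that shares a peak with Top2b, was at 189 and 167 CPM in CGE, 84.0 and 88.7 in MGE and 176 and 151 in LGE. CGE and LGE overlapped and both lay above MGE, with a ratio to MGE of 1.05 ± 0.15 (adjusted p = 0.0423). That call was lost without any 1 of 5 libraries (adjusted p from 0.061 to 0.323) and held without MGE replicate 2. The ratio of Rarb fell to 0.36 with the offset (adjusted p = 0.954), and the adjusted p was 0.0538 with only CGE and MGE in the fit, 0.193 at start-site peaks and 0.0848 with the replicate number as a block. Ebf1 at 338 and 381 CPM against 183 and 226 (0.82 ± 0.15, adjusted p = 0.104) and Foxp2 at 377 and 300 against 159 and 243 (0.75 ± 0.21, adjusted p = 0.284) did not pass.

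None of the 14 testable genes of the CGE list passed against MGE, where 1928 of all genes passed an unadjusted p of 0.05 (11.4%) and 3 of the 14 did. The median ratio was 0.17, and 0.02 relative to all genes with the offset. Nr2f1 (chr13:78188973-78199757), a nuclear receptor gene high in caudal forebrain, shares a peak with Fam172a. It was at 388 and 489 CPM in CGE and 242 and 186 in MGE, without overlap, as 39.4% of all genes had. Its ratio was 1.04 ± 0.18 (adjusted p = 0.0957) and it passed with DESeq2 (adjusted p = 1.44e-05) and at the lowest 10% of the ranking (adjusted p = 0.0255). Nr2f2 (chr7:70351944-70366735) was at 208 and 317 CPM against 197 and 145, both CGE samples above both MGE samples but with no call (0.62 ± 0.26, adjusted p = 0.434). With the offset its ratio fell to 0.23 relative to all genes. Prox1 and Sp8 had ratios of -0.27 and -0.30, Adarb2 of 0.22 and Htr3a, at under 11 CPM in every MGE and CGE sample, of -1.39 (adjusted p = 0.416).

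None of the 8 shared GABAergic regulators passed, with a median of -0.57, or -0.26 relative to all genes with the offset. At an unadjusted p under 0.05, 5 of the 8 were lower and 0 higher, where 11.4% of all genes passed in either direction. Dlx1, whose peaks are shared with Dlx2 in 3 of these 4 samples, was at 368 and 382 CPM in CGE and 696 and 549 in MGE (-0.73 ± 0.15, adjusted p = 0.145). Sp9 was at 156 and 172 CPM against 271 and 213 (-0.56 ± 0.17, adjusted p = 0.315). The 6 GABAergic markers, 5 of them genes of the rule, summed to 2093 and 2282 CPM in CGE members and 2904 and 2509 in MGE members. The part of this difference in the values of the shared regulators was not tested. None of the 15 interneuron migration genes passed, with a median of 0.16, which turned to -0.05 relative to all genes with the offset. The widest difference was that of Sema3a, a repulsive guidance cue, at 162 and 146 CPM against 43.8 and 99.7 (1.11 ± 0.33, adjusted p = 0.297). Markers of other cells differed beside these comparisons. The summed mural or mesenchymal markers were 130 to 148 CPM in CGE members and 167 to 254 in MGE, and the glutamatergic markers were 290 to 299 and 251 to 313. None of these 5 and 7 markers passed, the widest difference being that of Neurod6 (2.72 ± 0.63, adjusted p = 0.185), and their part in the results was not tested.

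**Figure D3:**
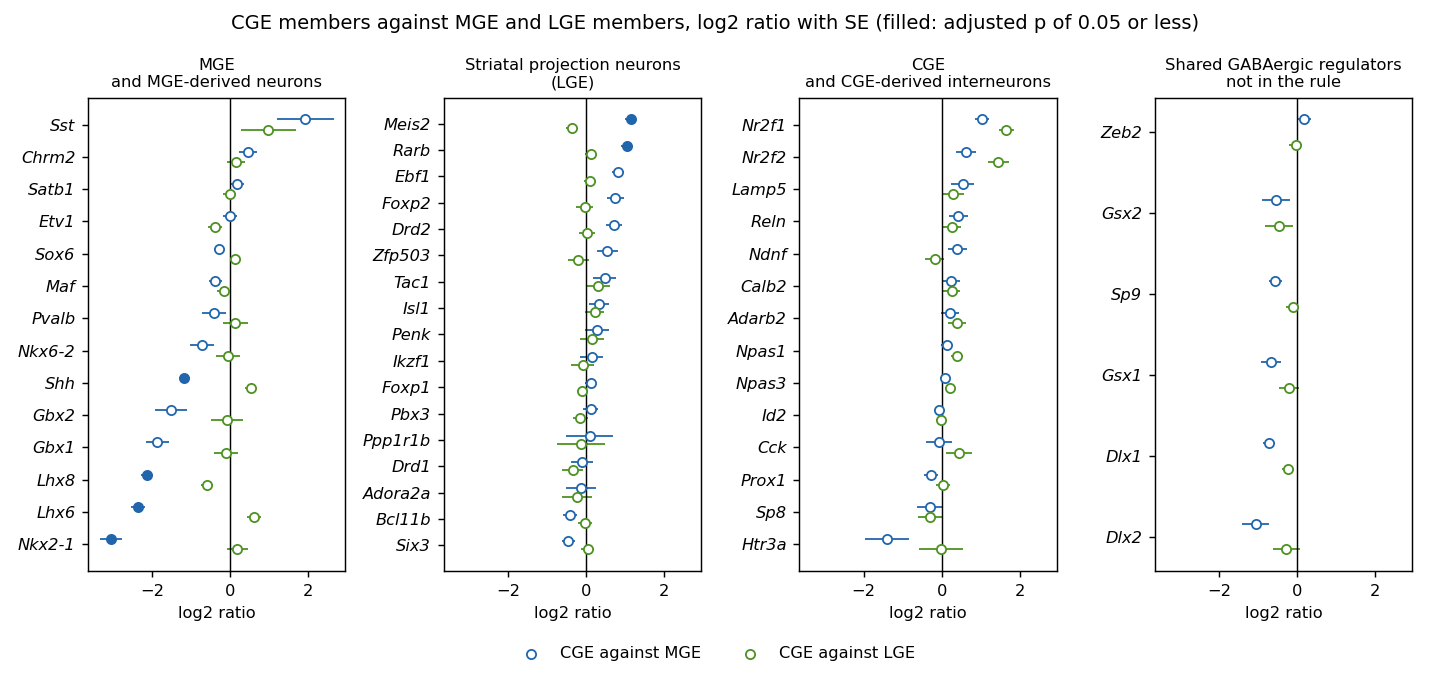
Log2 ratio of CGE members to MGE members (blue) and to LGE members (green) for tested genes of 4 lists, with the standard error of the fit as bars and filled points for an adjusted p of 0.05 or less. Nkx2-1, Lhx6, Lhx8, Shh, Meis2 and Rarb are filled against MGE and no point is filled against LGE.

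Genes outside the lists were named by the size of their ratio. Of the 53 called genes, 6 lacked a peak in a CGE or MGE sample. Another 3 changed sign with the offset or were left out of that fit for want of a peak in an LGE sample, which left 44. Tnfsf8 (chr4:63831308-63861347), which encodes a TNF family ligand, was at 23.7 and 30.6 CPM in CGE, 0.639 and 0.979 in MGE and 14.8 and 9.81 in LGE, a ratio to MGE of 5.12 ± 0.39 (adjusted p = 0.00362, and 0.0521 without MGE replicate 1). Next were Ppp1r3a, which encodes a glycogen-targeting phosphatase subunit (3.42), Sycp2l, a synaptonemal complex gene (3.29), 4930415O20Rik (2.97), Fap, a serine protease gene (2.67), and Olfr452, an olfactory receptor gene (2.59). The MGE samples lay under the CGE samples for each of these 6. Sycp2l was at 0.29 when only peaks in regions shared by all samples were counted (adjusted p = 0.881). Tnfsf8 and Olfr452 were among the 10 leading genes of cluster 5 and Ppp1r3a, Sycp2l and Fap among those of cluster 8, clusters that were formed on CGE nuclei alone.

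In the other direction the largest ratio was that of Ccdc188, which shares a peak with Zdhhc8 (-3.45). Beside Nkx2-1 and Lhx6, the next were those of Mettl11b, a methyltransferase gene (-2.73), Fgr, a Src family kinase gene (-2.38), and Rasgrp2, a Ras exchange factor gene that shares peaks with Nrxn2 and Pygm (-2.30). Ccdc188 was at 6.99 and 8.69 CPM in CGE against 106 and 64.4 in MGE, and Rasgrp2 at 36.9 and 38.8 against 204 and 167. All 12 genes named by size, Nkx2-1 and Lhx6 among them, lost their call with the offset. The calls of Ppp1r3a, Fap, Olfr452, Mettl11b, Fgr, Ccdc188 and Rasgrp2 also ended without CGE replicate 1, all but those of Ppp1r3a and Ccdc188 without CGE replicate 2 and all but those of Ccdc188 and Rasgrp2 without MGE replicate 1, at adjusted p values between 0.0506 and 0.247.

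The second comparison set the CGE members against those of LGE and shares its CGE samples with the first. Of the 16855 genes, 2 passed (0.0119%), both higher in CGE, and 671 had an unadjusted p under 0.05 (3.98%), while DESeq2 called 64 and the offset left 1 (0.00613%). Stap2 (chr17:55997077-56005584), an adaptor protein gene whose peaks are shared with Mpnd, was at 112 and 104 CPM in CGE, 129 and 116 in MGE and 2.40 and 2.87 in LGE. The LGE samples alone were low, and the ratio was 5.37 ± 0.19 (adjusted p = 7.29e-05), or 3.32 with the offset and relative to a median of -0.298 (adjusted p = 0.0124). Counted over peaks within 1 kb of a start site the ratio was 0.28 (adjusted p = 1). 4930415O20Rik, which shares a peak with Ccnt1, was at 67.5 and 89.0 CPM in CGE and 8.40 and 9.11 in LGE (3.16 ± 0.20, adjusted p = 0.00337, and 0.439 with the offset). The LGE sets rest on fewer GABAergic peaks in replicate 1, 46.8 kb against 74.6 kb in replicate 2, and Dlx5 was at 131 CPM in its members against 725 in those of replicate 2.

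No gene of the 5 lists passed against LGE. Nr2f1 was at 388 and 489 CPM in CGE and 148 and 130 in LGE, without overlap, as 33.8% of all genes had. Its ratio was 1.66 ± 0.19 with an adjusted p of 0.131, which ranged from 8.56e-15 to 1.00 over 17 alternatives. It passed with DESeq2, with shared regions (adjusted p = 0.0365), with start-site peaks (0.0466) and at the lowest 10% of the ranking (0.00649), and with the offset it was 0.30 relative to all genes. Nr2f2 was at 208 and 317 CPM against 78.9 and 113 (1.45 ± 0.27, adjusted p = 0.474), and with the offset its sign turned, to -0.04 relative to all genes. Meis2 was lower in CGE than in LGE in both samples (-0.37 ± 0.14, adjusted p = 1), and Lhx6 was at 74.2 and 78.2 CPM against 45.0 and 54.7 (0.62 ± 0.18, adjusted p = 1). List medians were 0.27 for the CGE list, -0.02 for the MGE list, -0.03 for the striatal list, -0.20 for the shared regulators and 0.06 for the migration genes, against 0.004 over all genes. With the offset and relative to all genes they were -0.05, -0.01, -0.20, 0.01 and -0.19, so the signs of the CGE, shared and migration lists turned.

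Single regulatory regions gave more calls than genes. Peaks of the 6 samples were merged into 223135 regions, of which 77217 had a peak in every sample. Of these, 76128 were tested, with values in CPM of counts in these regions. Regions without a peak in some sample, among them any called in 1 eminence only, were left out. Against MGE 4320 passed (5.67%), 2845 higher in CGE (3.74%) and 1475 lower (1.94%), with 19.8% at an unadjusted p under 0.05 and 47.9% without overlap in CPM. With an offset for the covered length 2474 passed (3.25%), of which 1138 were higher and 1336 lower, so the share higher in CGE went from 65.9% to 46.0%, and 1923 regions passed under both. That offset moved the median log2 ratio of all regions from 0.004 to -0.109, and the calls were made without removing this shift. Its part in the directions with the offset, here and below, was not tested. Calls were rare at start sites, at 184 of 16012 regions (1.15%), and more frequent in introns (7.27%) and between genes (6.87%). Positions were taken from protein-coding genes only, so a region between genes is one outside their bodies. At start sites 65 regions were higher and 119 lower, against 1198 and 556 in introns and 1386 and 643 between genes. With the offset the share of calls higher in CGE went from 35.3% to 16.2% at start sites. It went from 68.3% to 46.8% in introns and from 68.3% to 49.6% between genes. Leaving out CGE replicate 1 gave 1110 calls, CGE replicate 2 gave 981 and MGE replicate 1 gave 2437, and the replicate number as a block gave 6892.

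Regions were ranked among called ones without overlap in CPM whose peaks covered at least 50% of the region in each sample compared. Some called regions outside this limit had larger ratios. Printed here are the 3 of these ranked regions with the largest ratio higher in CGE and, of those lower, the one with the largest ratio outside exons. They are shown by their central 200 bases with motif cores in capitals. The first lay in an intron of Astn2, a neuronal adhesion gene (chr4:65686196-65687749, printed from 65686872 to 65687071), at 35.9 and 37.6 CPM in CGE, 3.56 and 3.13 in MGE and 24.98 and 24.7 in LGE (3.44 ± 0.24, adjusted p = 0.00117). Another lay 36.3 kb upstream of Fam49a (chr12:12225396-12226244, printed from 12225720 to 12225919), at 15.7 and 15.2 CPM against 1.37 and 1.61 in MGE (3.38 ± 0.32). The other was in an intron of Cdh18, a cadherin gene (chr15:23257521-23258537, printed from 23257929 to 23258128), at 14.2 and 18.4 CPM against 1.62 and 1.52 (3.36 ± 0.43). In each the 2 MGE samples lay under all 4 others. Of the regions lower in CGE, the one in an intron of Zmat5 (chr11:4729537-4730184, printed from 4729760 to 4729959) was at 0.309 and 0.136 CPM against 4.39 and 3.76 (-4.14 ± 0.73, adjusted p = 0.0111), from 5 and 2 counts in the CGE samples. The sequences are read from GRCm38, plus strand, 5′ to 3′, and the capitals mark TGACAG, the core bound by MEIS factors, on either strand (CTGTCA on the other), CAAGTG, that of NK2 factors, and CAGCTG, an E-box.
Astn2 intron: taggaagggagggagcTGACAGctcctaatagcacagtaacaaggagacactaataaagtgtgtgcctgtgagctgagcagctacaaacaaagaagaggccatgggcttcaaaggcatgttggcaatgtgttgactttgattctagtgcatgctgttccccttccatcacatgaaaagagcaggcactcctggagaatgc
Fam49a upstream: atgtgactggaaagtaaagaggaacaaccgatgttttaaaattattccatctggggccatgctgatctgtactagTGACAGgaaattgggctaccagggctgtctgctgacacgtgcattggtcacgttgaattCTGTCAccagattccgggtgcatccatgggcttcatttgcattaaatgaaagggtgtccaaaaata
Cdh18 intron: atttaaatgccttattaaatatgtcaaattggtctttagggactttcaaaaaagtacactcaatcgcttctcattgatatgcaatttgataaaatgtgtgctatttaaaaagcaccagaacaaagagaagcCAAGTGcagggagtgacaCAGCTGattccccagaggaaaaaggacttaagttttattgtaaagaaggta
Zmat5 intron: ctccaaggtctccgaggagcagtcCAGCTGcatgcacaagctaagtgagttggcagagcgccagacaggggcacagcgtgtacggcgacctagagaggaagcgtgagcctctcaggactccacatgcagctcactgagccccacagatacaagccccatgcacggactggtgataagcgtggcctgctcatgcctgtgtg

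The other regions named by the same rule were in an exon of Pgpep1 (chr8:70649003-70649871, -4.24 ± 0.85, from 4 and 1 counts in CGE) and in a stretch of chromosome 14 outside protein-coding genes (chr14:81685511-81686429, -3.95 ± 0.73). All 6 kept their call with the covered-length offset, at adjusted p values from 9.14e-05 to 0.0106.

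Motif cores were searched on both strands in the central 200 bases of every tested region, and the shares are descriptions. TGACAG stood in 29.9% of the regions higher in CGE, 15.0% of those lower and 16.3% of all tested. TAATTA, the core of many homeodomain factors including the Dlx family, stood in 15.0%, 11.1% and 7.32%, and CAAGTG in 11.3%, 15.2% and 11.4%. CAGCTG stood in 14.0%, 18.8% and 15.8%, and AGGTCA, a core of nuclear receptor sites, in 7.87%, 10.6% and 9.74%. The base composition of the sets differed, with a median GC content of 44.5%, 49.5% and 50%. Among regions of 40% to 50% GC, TGACAG stood in 31.8%, 14.0% and 18.0%, and TAATTA in 14.9%, 14.8% and 9.82%.

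**Figure D4:**
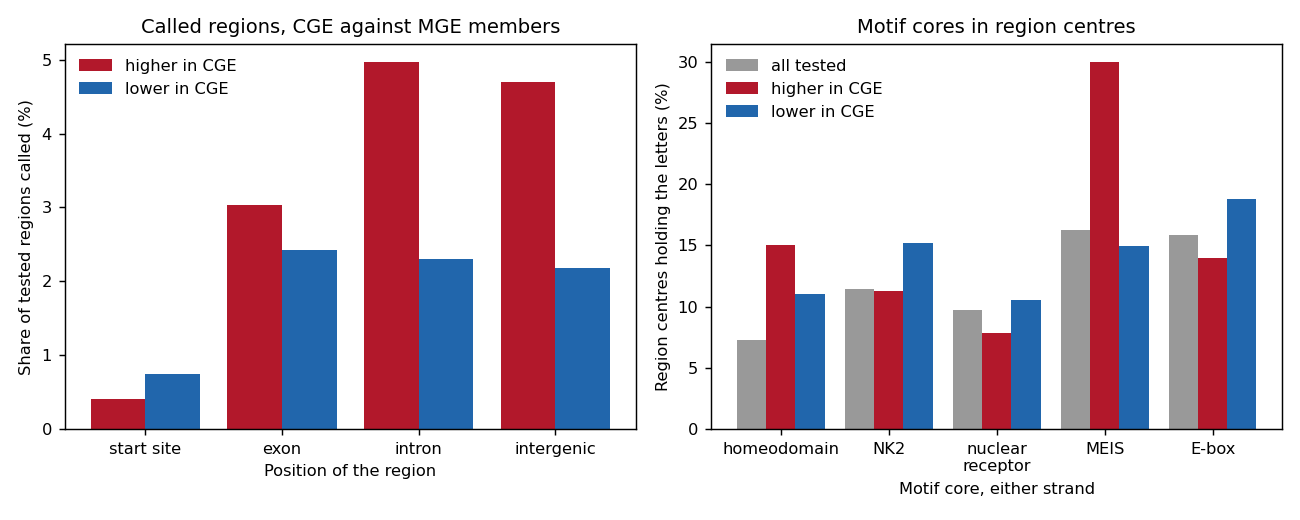
Left, share of tested regions (y axis, %) called higher (red) or lower (blue) in CGE than in MGE members by position (x axis); right, share of region centres (y axis, %) that hold each motif core in all tested regions and in both sets of called regions. Start sites have the fewest calls, 1.15%, and the MEIS core TGACAG is in 29.9% of the regions higher in CGE and 16.3% of all.

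Regions over the listed genes were called in a direction that differed by list. None of the 68 regions over MGE-list genes was higher in CGE and 8 were lower (11.8%, against 1.94% of all regions), and of 153 over striatal genes 20 were higher and none lower (13.1%, against 3.74% of all). With the covered-length offset 6 regions of the MGE list were lower, where 1.75% of all regions were, and 4 of the striatal list higher, where 1.49% of all were. Over Meis2 7 regions were called higher and none with the offset. Over CGE-list genes 6 of 103 were higher and none lower (5.83%, against 3.74% of all), and 3 were higher with the offset. Over migration genes 22 of 259 were higher (8.49%) and 10 lower (3.86%), and with the offset 9 and 7, where 1.49% and 1.75% of all regions passed. Beside these, 2 of 14 regions over glutamatergic markers were higher in CGE and 2 of 16 over mural or mesenchymal markers were lower, and their part in these shares was not tested. The region around the Nkx2-1 start (chr12:56517497-56541787) was at 88.7 and 74.7 CPM in CGE and 446 and 277 in MGE (-2.15 ± 0.24, adjusted p = 0.00225) and kept its call with the offset (adjusted p = 0.000736). Those at Lhx6, Lhx8, Gbx1 and Shh did so too, with ratios of -2.11, -2.13, -1.88 and -1.23 and adjusted p values with the offset of 0.00571, 0.000348, 0.000753 and 0.0221. The region over Dlx1 and Dlx2 was at 325 and 388 CPM against 678 and 553 (-0.79 ± 0.19, adjusted p = 0.0366, and 0.0194 with the offset). For Nkx2-1, Lhx6, Lhx8 and Shh a region thus kept its call with the offset, while the gene sum did not. The Nkx2-1 region spans the whole gene and its flanks, and regions and genes were tested in separate fits. These calls therefore do not set a start site against a gene body.

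The promoters of Nkx2-1 and Lhx6 lie inside those called regions and are shown as the 200 bases before the first base of the gene in the RefSeq promoter table (GRCm38.p6, minus strand, chr12:56536909-56537108 and chr2:36105409-36105608), with the E-box CAGCTG in capitals. It occurs in 10.9% of the 32851 promoters of that table, and none of the 5 cores stands in the window of Nkx2-1.
Nkx2-1 promoter: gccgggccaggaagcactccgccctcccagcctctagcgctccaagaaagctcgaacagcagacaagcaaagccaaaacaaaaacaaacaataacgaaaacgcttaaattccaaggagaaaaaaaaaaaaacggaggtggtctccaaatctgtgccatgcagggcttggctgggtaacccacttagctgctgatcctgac
Lhx6 promoter: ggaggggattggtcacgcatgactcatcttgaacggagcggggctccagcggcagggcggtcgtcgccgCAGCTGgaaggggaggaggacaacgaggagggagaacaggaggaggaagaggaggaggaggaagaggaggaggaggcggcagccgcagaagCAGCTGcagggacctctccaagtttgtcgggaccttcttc

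Among regions higher in CGE, the Nr2f1 region (chr13:78159945-78213950) was at 473 and 498 CPM against 323 and 251 in MGE (0.76 ± 0.18, adjusted p = 0.0330, and 0.190 with the offset), and the Nr2f2 region did not pass (0.24 ± 0.22, adjusted p = 0.623). An intronic region of Npas3, a transcription factor gene of CGE interneurons, was at 25.7 and 25.7 CPM against 8.70 and 6.98 (1.70 ± 0.24, adjusted p = 0.00446). Another, in Adarb2 (chr13:8213457-8214324), was at 7.24 and 8.50 CPM against 0.995 and 1.61 (2.63 ± 0.40, adjusted p = 0.0060). Both kept their call with the offset, at adjusted p values of 0.00231 and 0.0481. Of the regions over Rarb, 5 passed and all 5 were higher, and the first of them was at 14.0 and 16.3 CPM against 0.539 and 2.77 (3.35 ± 0.59, adjusted p = 0.0108). With the offset 2 regions over Rarb passed, both higher.

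Of the 15 migration genes 10 held called regions, 5 of them in both directions (Robo1, Robo2, Plxna4, Dcc and Slit1), 4 higher only (Erbb4, Sema3a, Nrp1 and Epha4) and 1 lower only (Ephb1). The 10 were among the 12 that hold 10 or more tested regions, and of all 953 such genes 65.8% held a call and 16.3% calls in both directions. With the offset 8 held called regions (45.6% of the 953 genes), 4 of them in both directions (7.97%). Directions then changed for Epha4, to 1 lower and none higher, and for Ephb1, to 1 higher and 3 lower. Sema3a and Dcc lost their calls, and Robo1 had 2 higher and none lower. Robo1, Plxna4 and Slit1 are given as examples, chosen after their values were seen. In Robo1, the gene of a Slit receptor, an intronic region was at 16.2 and 21.1 CPM in CGE against 4.31 and 3.04 in MGE (2.31 ± 0.28) and another at 8.72 and 8.43 against 14.3 and 25.5 (-1.20 ± 0.31). With the offset the first kept its call (adjusted p = 0.000715) and the second lost it (0.0668). In Plxna4, a semaphorin co-receptor gene, the pair of regions with the smallest p stood at 28.6 and 16.6 against 4.93 and 3.58 CPM (2.39 ± 0.33) and at 5.94 and 7.54 against 19.7 and 25.9 (-1.76 ± 0.28), and both kept their call with the offset (adjusted p = 0.00503 and 0.00853). Slit1, a repulsive ligand gene, had 1 region higher and 3 lower, and 1 and 1 with the offset. The gene sums of Robo1, Plxna4 and Slit1 differed by 0.33, 0.26 and -0.29 with no call, and the regions of opposite direction lay within these sums.

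No region passed against LGE by edgeR, while 324 did with the replicate number as a block, with 7303 at an unadjusted p under 0.05 (9.59%), 42.3% without overlap in CPM and 964 calls by DESeq2. With the offset 446 passed (0.586%), 7 higher (0.0092%) and 439 lower in CGE (0.577%), with a median of all regions at -0.267, and without LGE replicate 2 there were 260.

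The deposited counts per transcription factor motif gave no call. Of 579 motifs none passed against MGE or LGE by edgeR, 16 and 49 had an unadjusted p under 0.05, and DESeq2 called 6 and 14. With the replicate number as a block none passed either, with 29 and 117 at an unadjusted p under 0.05. The 34 listed motifs had a median log2 ratio of 0.03 against MGE and 0.01 against LGE, beside -0.02 over all motifs in both. The NKX2-8 motif was at 1347 and 1360 CPM of motif counts in CGE and 1667 and 1514 in MGE (-0.23 ± 0.08, adjusted p = 0.951), and NEUROD2 at 240 and 225 against 344 and 287 (-0.44 ± 0.12, adjusted p = 0.951). Both MGE samples lay above both CGE samples for these motifs, and 35.1% of all motifs did not overlap (56.1% against LGE). The MEIS2 motif was at 2985 and 2973 CPM in CGE and 3049 and 2795 in MGE, with no gap between the groups. NR2F1 and NR2F2 motifs stood at 320 and 351 and at 290 and 378 CPM in CGE, against 350 and 363 and then 415 and 322 in MGE. The smallest p against LGE belonged to Hoxa11 (-1.33 ± 0.19) and Shox2 (-0.27 ± 0.04), and SOX4, the motif of a factor of young neurons, was at 135 and 127 CPM against 190 and 175 (-0.48 ± 0.11), each with an adjusted p of 0.426. These 3 passed with DESeq2 (adjusted p = 4.48e-07, 0.00784 and 0.0157). Libraries of 1 region could differ widely, as for MEIS3 at 2672 and 7040 CPM in the 2 CGE samples.

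The last comparison asked whether the regional differences of the members differed from those at the progenitor end. It tests the log2 ratio of members to progenitor end in CGE minus the same in MGE, with both ends of each sample in 1 fit. Of 17110 genes, 315 passed (1.84%), 151 with the larger ratio in CGE (0.883%) and 164 with the smaller (0.959%). Of the 15 genes of the MGE list 1 passed with the larger ratio in CGE and 3 with the smaller. Lhx6 was at 74.5 and 77.9 CPM in CGE members and 41.7 and 43.8 at the progenitor end, against 444 and 342 and then 106 and 118 in MGE. The gain of Lhx6 towards the neuronal end was larger in both MGE samples (difference -0.96 ± 0.17, adjusted p = 0.0147, and 0.0507 without MGE replicate 1). Lhx8 was lower in members than at the progenitor end in CGE, 42.0 and 39.9 against 59.7 and 64.8 CPM, and higher in MGE, 168 and 189 against 85.3 and 102 (-1.52 ± 0.13, adjusted p = 0.000181). Gbx1 did likewise (-1.49 ± 0.18, adjusted p = 0.00212).

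Nkx2-1 had the opposite sign. It was at 453 and 267 CPM in MGE members and 589 and 422 at the MGE progenitor end, and at 49.2 and 37.8 against 32.6 and 27.6 in CGE, so its difference between the regions was smaller in members (1.06 ± 0.15, adjusted p = 0.00537). Plxna4 was higher in members than at the progenitor end in all 4 samples, with the larger ratio in MGE, at 149 and 192 against 61.7 and 88.0 CPM there and 214 and 197 against 172 and 160 in CGE (-0.87 ± 0.12, adjusted p = 0.00418). At start-site peaks alone that difference was -0.41 and Plxna4 lost its call (adjusted p = 0.286).

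Of the 17 striatal genes 4 passed, all with the larger ratio in CGE as for 0.883% of all genes, and the median difference was 0.31 against 0.02 over all genes. Meis2 was at 446 and 472 CPM in CGE members against 511 and 526 at the progenitor end, and at 218 and 195 against 356 and 386 in MGE (0.69 ± 0.13, adjusted p = 0.0165). Ebf1 was at 339 and 379 against 290 and 278 in CGE and at 181 and 226 against 200 and 286 in MGE (0.60 ± 0.12, adjusted p = 0.0276). Foxp2 (0.63 ± 0.11) and Zfp503, a zinc finger gene of striatal development (0.61 ± 0.12), passed as well. These 4 calls were lost without 2 or more single libraries, all of them without LGE replicate 1 (adjusted p from 0.0566 to 0.081) and without MGE replicate 2 (from 0.0512 to 0.147), Foxp2 and Zfp503 without MGE replicate 1 (0.0723 and 0.0846), and Ebf1 and Zfp503 without CGE replicate 2 (0.088 and 0.171). At start-site peaks alone Foxp2 was at 0.22 (adjusted p = 0.526) and Zfp503 lost its call (0.0547), and with peaks in shared regions only Ebf1 and Meis2 lost theirs (0.0545 and 0.0713). Of the markers of other cells, Emx1, a pallial factor (-0.72), and Pdgfrb, a pericyte receptor (-0.75), passed with the smaller ratio in CGE, and their part in these results was not tested. Against LGE no gene passed by edgeR, with 1253 at an unadjusted p under 0.05 and 28 calls by DESeq2.

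**Figure D5:**
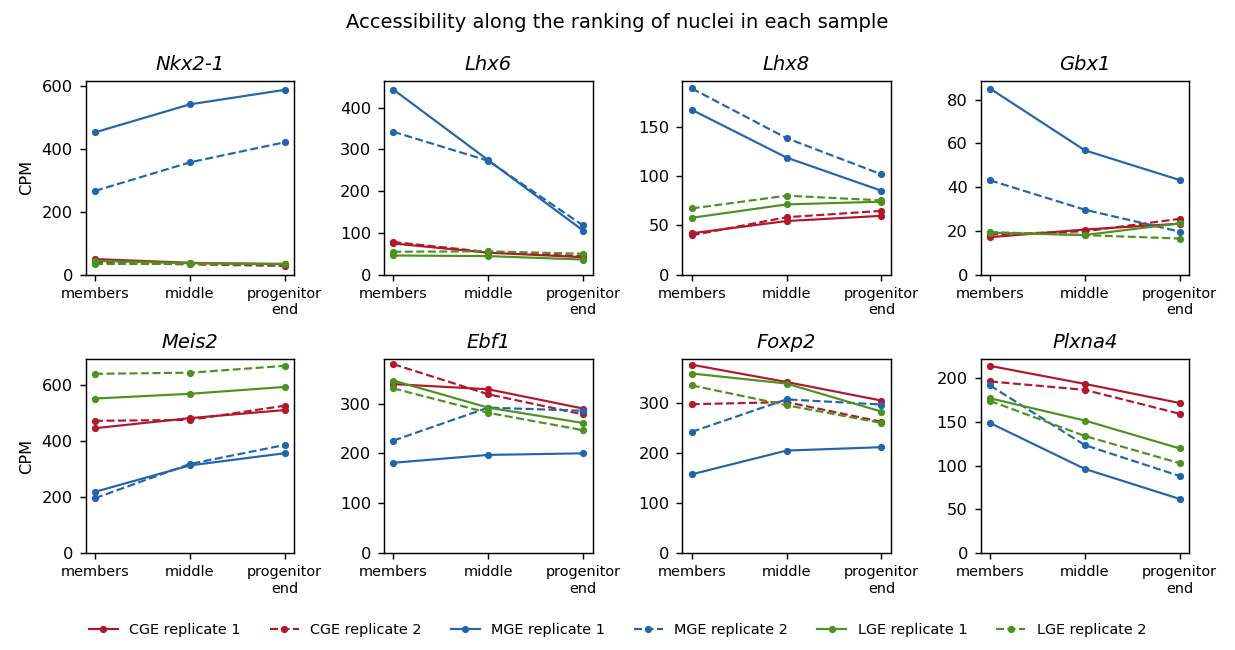
Accessibility (y axis, CPM) over 8 genes in the members, the middle 50% and the progenitor end of the ranking (x axis) in each of the 6 eminence samples (lines). In both MGE samples Lhx6, Lhx8 and Gbx1 are higher and Nkx2-1 and Meis2 lower in members than at the progenitor end, and CGE stays low over Nkx2-1 at every position.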

How the data were processed

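For each sample the authors deposited raw counts per peak and nucleus, with peaks called separately in each sample, and raw counts per motif and nucleus. The submitters' processing notes name Cell Ranger ATAC 1.2.0 and GRCm38 (mm10). Counts were summed over the members of each sample, since nuclei are not replicates. Gene counts were the sums of a sample's own peaks over the body or 2 kb upstream of 21938 protein-coding genes, so they grow with the length called as peak. A peak over several genes counted for each. Merging the peaks gave 223135 regions, of which 77217 were present in each of the 6 samples. Genes, regions and motifs were tested with edgeR 4.0.16 (glmQLFTest, TMM, filterByExpr) in R 4.3.3, the 3 regions in 1 fit, with Benjamini-Hochberg adjustment over all features and a call at 0.05. The comparison with the progenitor end had sample as a block. DESeq2 1.42.0 was an alternative. The scripts were tested on simulated data.

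CGE nuclei were clustered on 76924 regions with 30 latent semantic components, 20 neighbours and Leiden resolution 0.5 (leidenalg 0.10.2, Python 3.11.15). A marker was called raised at 10 CPM or more and a log2 fold over 0.5 against the other CGE nuclei. Named genes were the list members and, per comparison, the 6 called genes with the largest ratio in each direction whose CPM did not overlap, with 5 CPM or more in the higher group, a peak in each sample compared and the same sign with the covered-length offset. Named regions were the 3 with the largest ratio in each direction whose peaks covered at least 50% of the region. The members, gene lists and naming rules were chosen with earlier results of these data known. The rule's 11 genes, and Myo3a, Bcan and Pank4, which share peaks with them, were not tested. Values of some listed genes are not reported here, though counts over the lists include them. Barcodes under 5000 counts (408 in CGE) and the cortical samples were left out.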

Additional observations from a re-analysis of the deposited data

Results flagged for a closer look

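The results given here are genes whose log2 ratio of members to progenitor end differed between CGE and MGE by the test of the difference itself, and they are among the genes named by size or by list among the 315 that passed. The 6 with the largest ratio in CGE relative to MGE were Ambn (6.75), Abca8a (5.59), 4930432M17Rik (3.92), Tnfsf8 (3.75), Npc1l1 (3.35) and Hormad2 (2.77). Ambn was at 8.55 and 6.65 CPM in CGE members against 0.513 and 0.201 at the progenitor end, and at 0.506 and 1.69 against 2.69 and 7.91 in MGE, but at start-site peaks alone its adjusted p was 0.382.

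The 6 with the smallest were Gpr55 (-3.43), Mettl11b (-2.62), Il18rap (-2.50), Krt82 (-2.35), Zpld1 (-2.23) and Adgrf5 (-2.15). Mettl11b was at 8.55 and 4.33 CPM in CGE members against 12.8 and 7.85 at the progenitor end, and at 32.4 and 52.5 against 7.80 and 14.7 in MGE. With peaks in shared regions only, Gpr55 was at -0.45 (adjusted p = 0.862), Hormad2 at 0.68 (0.689) and Zpld1 at -1.07 (0.355). At start-site peaks alone the adjusted p was 1 for Adgrf5, 0.513 for Hormad2 and 0.148 for Il18rap, and at the lowest 10% of the ranking it was 0.138 for Npc1l1 and 0.0509 for Hormad2. Some calls were also lost when a single library was left out. That of Npc1l1 was lost without CGE replicate 1, CGE replicate 2 or MGE replicate 2, and that of Hormad2 without MGE replicate 1. Zpld1 lost its call without MGE replicate 1 or 2. Krt82 lost its call without CGE replicate 1, CGE replicate 2, LGE replicate 1 or MGE replicate 2. Krt82 also missed the threshold with DESeq2 (0.0565), with peaks in shared regions only (0.0508) and with nuclei of 10000 or more counts (0.0562). Most of these 12 genes were under 30 CPM.

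Among the listed genes that passed and whose values are reported here, the differences were 1.06 for Nkx2-1, -0.96 for Lhx6, -1.52 for Lhx8, -1.49 for Gbx1, 0.60 for Ebf1, 0.63 for Foxp2, 0.61 for Zfp503, 0.69 for Meis2 and -0.87 for Plxna4, whose adjusted p was 0.286 at start-site peaks alone.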

How the results depend on the processing

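The alternatives gave 690 values for 44 results on named genes, of which 573 kept their side of the threshold, 110 lost their call, 7 gained one and 0 called values changed sign. The counts moved more. For genes against MGE (53) they were 461 with DESeq2, 0 with the covered-length offset, 17 with peaks within 1 kb of a start site, 103 at the lowest 10% of the ranking and 9 to 387 without single libraries (387 without MGE replicate 2). For genes against LGE (2) they were 4 with only the 2 regions compared, 64 with DESeq2, 1 with the offset, 6 with start-site peaks and 2 to 12 without single libraries (12 without LGE replicate 2). For regions against MGE (4320) they were 2474 with the offset and 981 to 5236 without single libraries. For regions against LGE (0) they were 964 with DESeq2, 446 with the offset, 29 at the lowest 10% and 0 to 260 without single libraries (260 without LGE replicate 2). For motifs (0 and 0) they were 6 and 14 with DESeq2, and 0 to 2 against MGE without single libraries (2 without MGE replicate 2). For the comparison with the progenitor end against MGE (315) they were 102 with start-site peaks, 491 without the 5% of nuclei with most counts and 155 to 341 without single libraries (155 without MGE replicate 2, 172 without LGE replicate 1). Against LGE (0) they were 28 with DESeq2, 4 with the offset, 11 with start-site peaks, 9 at the lowest 10%, 9 without the 5% of nuclei with most counts and 0 to 9 without single libraries (9 without CGE replicate 1). Where a library was left out, the lone sample of its region was assumed to vary like the others. The cause of these changes was not tested.

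With the replicate number as a block the counts were 16 for genes and 6892 for regions against MGE and 324 for regions against LGE, and Meis2, Rarb, Shh, Fap, Olfr452, Fgr and Mettl11b lost their calls against MGE (adjusted p from 0.0582 to 0.12). Same-numbered deviations correlated for genes at 0.418 for CGE and LGE, -0.020 for CGE and MGE and 0.081 for MGE and LGE. They correlated at 0.141 to 0.336 for regions, highest for CGE and LGE, and at 0.299 to 0.440 for motifs. With only 2 numbers these values do not settle whether the numbers pair the samples. Both motif counts stayed at 0 with the block. The share of odd entries in the peak matrices followed the number, at 9.54% to 10.4% in replicate 1 and 5.17% to 5.85% in replicate 2. Barcodes under 5000 counts did so too, at 306 to 760 and 102 to 153, and replicate 2 had more peaks in each eminence. The labels do not say what the numbers stand for, and their part in the results was not tested.

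With 2 samples per region, no spread can be had within a replicate number, and depth per member sum ranged from 12589595 to 25430664 counts. Gene sums follow the length called as peak, which differed between samples (87.2 to 156 Mb).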
